A study of Drosophila melanogaster with 6 samples.

Results

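Replicates 3 and 4 of untransfected Drosophila melanogaster S2-DRSC cells were set against replicates 1 and 2 of the same cells, 2 libraries a side. The sets were taken from the labels: the descriptions of replicates 1 and 2 name the authors' table of changed genes, and those of replicates 3 and 4 do not. All 4 of these libraries, of 6 in the series, entered the comparison, and 9375 of 14770 genes had enough counts to be tested. The S2-DRSC line is wild type, comes from late embryos and was grown in Schneider medium with serum. The other 2 libraries are of cells that carry a stable HA::AbdA transgene, a tagged Hox protein (S2-AbdA). They took no part in the contrast, but entered the gene filter, the scaling and the estimate of the spread. Every culture, untransfected or transfected, had 10 µM copper sulphate for 24 h, and polyadenylated RNA was measured. The labels give no difference in strain, genotype, medium or treatment between the S2 sets, and do not say whether the libraries came from separate cultures. What p-values measure here is thus no more than how these samples scatter, and that scatter may be technical.

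S2 cells resemble haemocytes, the blood cells of the fly. Most circulating haemocytes are plasmatocytes, phagocytes that engulf bacteria and dying cells, secrete basement membrane and answer through the Toll, Imd and JAK/STAT pathways. Crystal cells carry the prophenoloxidases used in melanization, and lamellocytes wrap parasites. Copper acts in fly cells through the metal-responsive transcription factor, which turns on metallothioneins, small proteins that bind the metal, and heat shock proteins are chaperones induced when proteins unfold.

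Totals were 34233132 and 43763397 counts in replicates 1 and 2, and 54021037 and 69858688 in replicates 3 and 4. Replicate 3 stood apart, with a TMM factor (trimmed mean of M-values, the scaling used) of 0.752, against 1 to 1.06 in the other S2 libraries. Between replicate 4 and replicate 3, 1911 genes (20.4% of those tested) differed more than 2-fold in scaled CPM plus 1, where CPM is counts per 1e+06 counts of the library. Between replicate 2 and replicate 1 there were 116 such genes (1.24%), and between the S2-AbdA libraries 280 (2.99%). Since replicate 3 differs from replicate 4 in this way, results are given below for each alone as well as for both. Those of 1 library alone are medians or ratios without a test, apart from counts given for the cytosolic ribosomal genes. Fits that leave out 1 S2 library have 1 library on that side. Their spread comes only from the other pairs, so their counts and adjusted p do not test a single replicate.

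Between the sets, 3469 genes (37.0%) differed at a Benjamini-Hochberg adjusted p under 0.10 in edgeR's quasi-likelihood test, the source of every adjusted p given here. In replicates 3 and 4, 1698 were higher (18.1%) and 1771 were lower (18.9%). The scaling decides this balance. With library size alone 760 were higher and 1738 lower, and with the upper quartile 1170 and 1981, while the median of all genes moved to -0.27 and -0.15 from -0.01 on the log2 scale. Single libraries also moved the count: it was 1652 without replicate 1, 1048 without replicate 2 and 6354 without replicate 4. Levels are TMM-scaled CPM, and differences are log2 of replicates 3 and 4 over replicates 1 and 2.

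The widest gaps were genes all but silent in replicates 3 and 4. Both libraries were under 1 CPM for 74 genes that stood at 5 CPM or more in replicates 1 and 2, and all 74 were lower by the test. The reverse held for 2 genes, ZnT35C and Ccn. These 2 cutoffs were chosen after the levels were seen. In S2-AbdA, 23 of the 74 were under 1 CPM in both libraries, 12 were at 5 CPM or more in both and 39 lay between.

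bap, which encodes the homeobox factor of visceral muscle bagpipe (gene number 42537, dm3 chromosome 3R, 17214605 to 17216171), held 523 and 294 counts in replicates 1 and 2 and 0 in both replicates 3 and 4. Over a floor of 3 counts for replicates 3 and 4 together, it was at least 364-fold lower there. The Hox gene abd-A (gene number 42037, chromosome 3R, 12632936 to 12655474) held 996 and 2308 counts in replicates 1 and 2, then 0 and 3. This is a ratio of 1472 (95% interval from the counts alone, 504 to 7140). CG10348 (chromosome 2L, 18714615 to 18731419) held 294 and 644 counts, then 0 and 2, a ratio of 627 (174 to 5178). No library of one set came near the other set for these 3 genes. Floors and intervals of this kind reflect counting error and nothing else. In S2-AbdA, bap was at 0 and 0.0601 CPM, CG10348 at 0.441 and 2.06 CPM, and abd-A, which is the transgene there, at 15720 and 10140 CPM.

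The other large falls included genes of matrix and muscle. prc, which encodes the collagen-like heart protein pericardin, was at 14.8 and 19.6 CPM in replicates 1 and 2 and at 0 and 0.0716 CPM in replicates 3 and 4 (adjusted p = 7.61e-05). Act79B, a muscle actin gene, was at 25.7 and 65.5 CPM, then at 0.246 and 0.143 CPM (log2 difference -7.91, SE 0.68, adjusted p = 5.59e-05). nimB4, of the Nimrod family of phagocytosis genes, was at 21.7 and 7.79 CPM, then at 0.0246 and 0.1002 CPM (-7.67, SE 0.94, adjusted p = 2.51e-04). For each of these genes both low values were under 1 CPM, and the sets did not overlap. CG34398, CG14309, CG17839 and CG1607 complete the 10 largest falls, with log2 differences from -8.53 to -7.71. These 10 kept their sign in every alternative, and only CG14309 lost its call in one, without replicate 3 (adjusted p = 0.178).

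The largest rise was in ZnT35C, a gene of the zinc transporter family (gene number 34890, chromosome 2L, 15228728 to 15247714). It was at 0.248 and 0.389 CPM in replicates 1 and 2 and at 16 and 13.2 CPM in replicates 3 and 4 (log2 difference 5.49, SE 0.49, adjusted p = 6.09e-05). Replicates 3 and 4 lay close together, and S2-AbdA stood between the sets at 2.34 and 1.93 CPM. blanks, which encodes an RNA-binding protein needed for male fertility, had the highest level of the 10 largest rises. Its levels were 35.7 and 67.5 CPM in replicates 1 and 2 and 797 and 658 CPM in replicates 3 and 4 (3.82, SE 0.46, adjusted p = 2.19e-04). ppk10, of the pickpocket family of sodium channels, went from 4.51 and 12.3 CPM to 78.6 and 78.7 CPM (3.23, SE 0.48, adjusted p = 8.02e-04). Vmat, the vesicular monoamine transporter gene, went from 2.26 and 4.64 CPM to 37.4 and 21.7 CPM (3.09, SE 0.46), and overlaps CG13331 and CG13332. Among these 10, replicate 3 was above replicate 4 by more than 2-fold in CG5321 alone, where the log2 ratio of replicate 4 over replicate 3 was -1.28. CG31323, CG31086, Ccn, CheB98a and CG30431 make up the rest, with log2 differences from 3.23 to 3.96. The 10 largest rises kept their calls in every alternative.

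**Figure D1:**
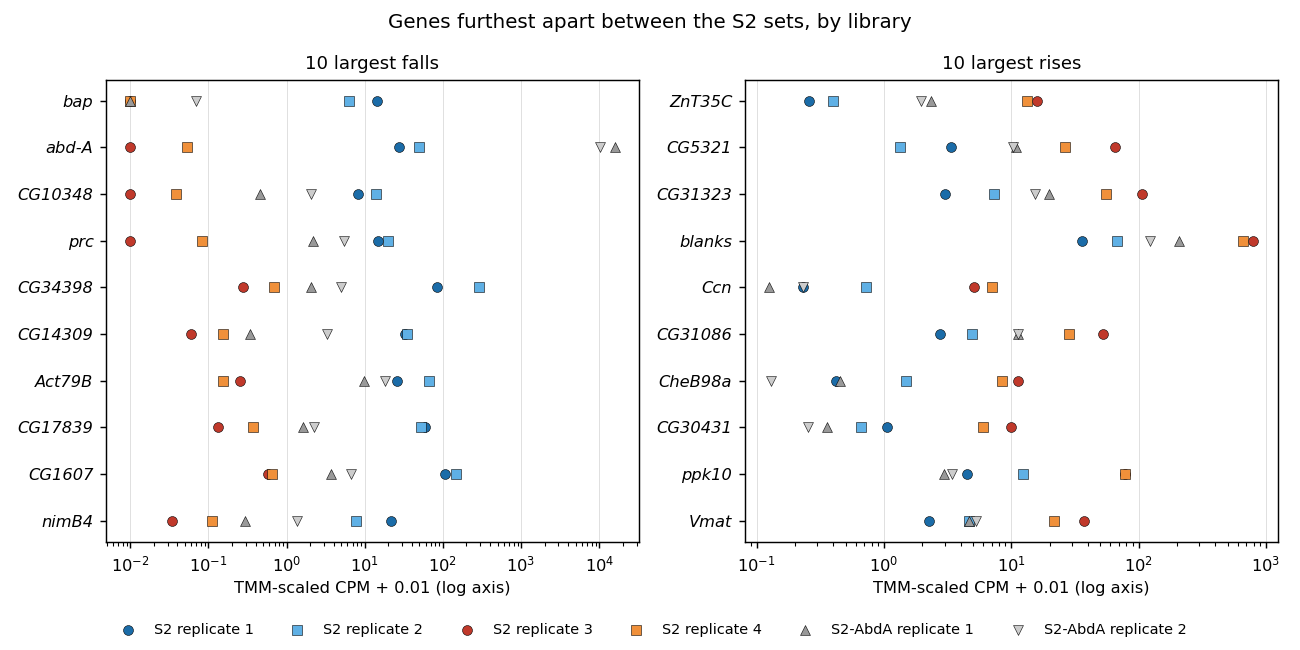
TMM-scaled CPM plus 0.01 (log axis) of the 10 largest falls and the 10 largest rises, 1 point per library, with S2-AbdA in grey. Replicates 3 and 4 lie apart from replicates 1 and 2 in every gene shown, and close to each other in most, as for ZnT35C at 16 and 13.2 CPM.

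Heat shock genes were low in replicates 3 and 4. Of the 13 tested members, 1 more being too low, 12 were lower and 0 higher. Hsp67Ba was the exception (-1.11, adjusted p = 0.120), and the median log2 difference was -3.49 against -0.01 over all genes. Hsp27, a small heat shock protein, was at 60.1 and 181 CPM in replicates 1 and 2 and at 6.87 and 6.47 CPM in replicates 3 and 4 (-4.18, SE 0.54, adjusted p = 3.54e-04). Hsp68, an inducible chaperone, was at 98.7 and 175 CPM, then at 21.5 and 20.6 CPM (-2.70, SE 0.44, adjusted p = 0.00146). Replicates 3 and 4 nearly coincided in both genes. Hsp26 went from 118 and 428 CPM to 45.1 and 9.39 CPM (-3.33, SE 0.80, adjusted p = 0.0148), and Hsp22 from 60.3 and 173 CPM to 24.1 and 5.35 CPM (-2.99, SE 0.75, adjusted p = 0.0174). In these the sets did not overlap, but replicate 3 lay between replicates 1 and 4, and both calls were lost without either of replicates 3 and 4 (adjusted p from 0.188 to 0.229). The cochaperone gene stv, which encodes starvin, went from 14.9 and 33.5 CPM to 1.16 and 2.56 CPM (-3.68, SE 0.52, adjusted p = 5.46e-04). Hsp83, the most abundant member, went from 2992 and 2735 CPM to 1306 and 1801 CPM (-0.88, SE 0.37, adjusted p = 0.0940). Against replicates 1 and 2, the median log2 difference was -2.85 for replicate 3 alone and -4.44 for replicate 4 alone. Over all genes tested these medians were -0.05 and 0.03.

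Reads of the near-identical Hsp70 copies could be split between them, so single copies are uncertain. Hsp70Ba, Hsp70Bc and Hsp70Aa summed to few counts: none exceeded 7.62 CPM in replicates 1 and 2, and none exceeded 0.148 CPM in replicates 3 and 4. The levels within replicates 1 and 2 also differed, since replicate 2 was above replicate 1 in Hsp26, Hsp27, Hsp22 and Hsp23 (100.3 CPM in replicate 1 and 402 CPM in replicate 2). In S2-AbdA, Hsp68 was at 378 and 208 CPM and Hsp27 at 165 and 116 CPM, above both replicates 3 and 4.

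Metallothioneins went the other way. MtnA, the most abundant, was at 1134 and 2429 CPM in replicates 1 and 2 and at 9763 and 4684 CPM in replicates 3 and 4 (2.02, SE 0.48, adjusted p = 0.0139). MtnD went from 4.96 and 15.0 CPM to 93.9 and 50.1 CPM (2.85, SE 0.56, adjusted p = 0.00456), and MtnE from 3.99 and 12.1 CPM to 42.9 and 31.7 CPM (2.21, SE 0.51, adjusted p = 0.0128). MtnB went from 10.3 and 22.9 CPM to 84.6 and 24.2 CPM (1.71, SE 0.59, adjusted p = 0.0569). In all 4 genes replicate 1 was the lowest S2 library and replicate 3 the highest, and in MtnB replicate 4 was barely above replicate 2. The 4 genes have exonic lengths of 274 to 700 bases. The shortest 933 of the tested genes, 35 to 795 bases, had a median difference of 0.84. The calls of MtnB, MtnD and MtnE were lost without replicate 3 (0.55, 2.33 and 1.98, adjusted p = 0.573, 0.135 and 0.171), and those of MtnA and MtnB without replicate 1 (1.58 and 1.25, adjusted p = 0.124 and 0.234). Over the whole metal list of 28 tested genes, 7 were higher, 5 lower and 16 not past the test, where 18.1% and 18.9% of all genes were. The share of lower genes was thus near that of all genes. The median of the list, 0.15, fell below 0 under scaling by library size alone. The lower ones included Mvl, a metal ion importer (122 and 139 CPM, then 34.5 and 50.2 CPM, -1.62, adjusted p = 0.0109), and the iron carrier Tsf1 (-2.10).

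**Figure D2:**
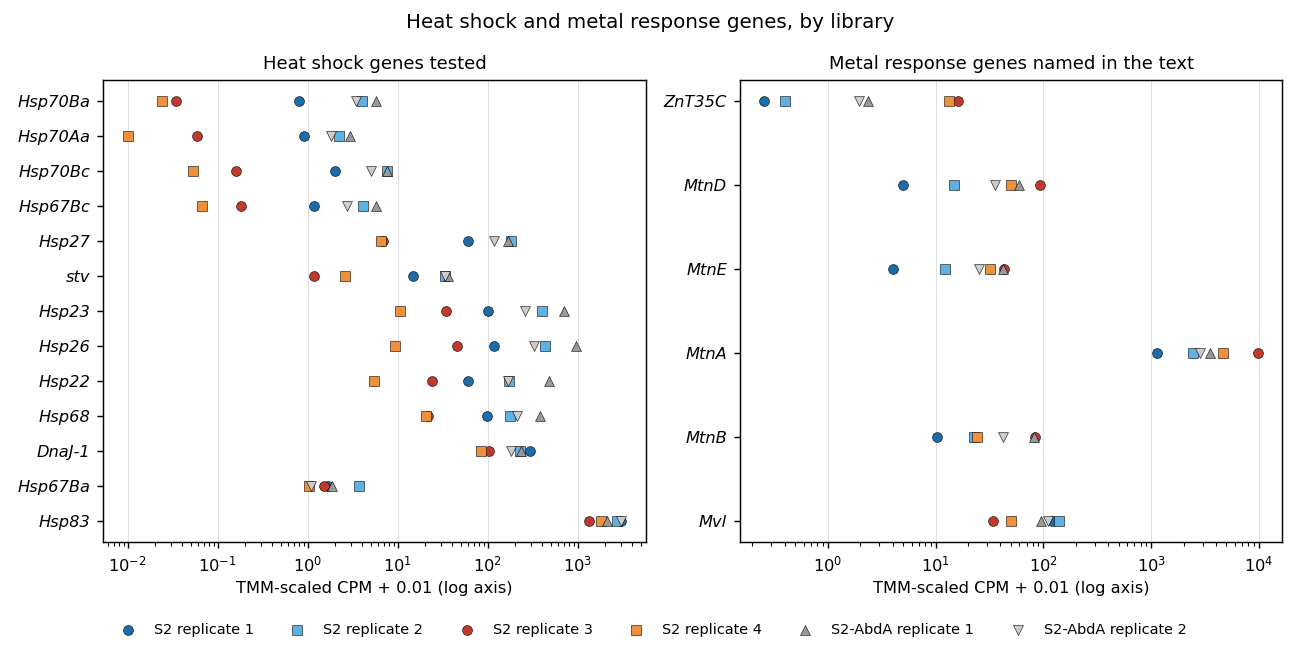
TMM-scaled CPM plus 0.01 (log axis) of the 13 heat shock genes tested and of 6 metal response genes, 1 point per library. Heat shock genes are low in replicates 3 and 4, such as Hsp27 at 6.87 and 6.47 CPM, while the 4 metallothioneins and ZnT35C are high there.

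Genes of the plasmatocyte were low in replicates 3 and 4. Of 22 tested markers 15 were lower and 1 was higher, at a median of -2.49, which leaves 6 not past the test. The median was -2.41 for replicate 3 alone and -2.38 for replicate 4 alone. The phagocytosis receptor gene eater was at 80.0 and 62.5 CPM in replicates 1 and 2 and at 1.43 and 0.744 CPM in replicates 3 and 4 (-6.05, SE 0.70, adjusted p = 1.86e-04). The scavenger receptor gene Sr-CI was at 46.2 and 20.9 CPM, then at 0.418 and 0.186 CPM (-6.85, SE 0.72). nimC1, another receptor of phagocytosis, had only 1.84 and 2.07 CPM in replicates 1 and 2, and 0 and 0.0429 CPM in replicates 3 and 4. In each of the 3 the sets stood far apart and replicates 3 and 4 near each other. In bulk RNA, fewer cells of a type and less RNA per cell cannot be told apart.

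The fall did not extend to every plasmatocyte gene. Hml, the clotting factor hemolectin, was at 190 and 128 CPM in replicates 1 and 2 and at 33.0 and 51.0 CPM in replicates 3 and 4 (-1.92, past the test). Cg25C, one of the collagen IV chains, was at 5029 and 3947 CPM, then at 1273 and 2668 CPM (-1.19, past the test), while its partner vkg was at 2902 and 2655 CPM, then at 900.1 and 2341 CPM (-0.78, not past the test). srp, the GATA factor of haemocytes, was at 349 and 308 CPM, then at 81.0 and 223 CPM (-1.11, not past the test). For these genes replicate 3 was the lowest library, and in all but Hml replicate 4 was more than 2-fold above it. Nplp2, one of the most abundant transcripts of these cells, was at 6016 and 4150 CPM, then at 10130 and 4022 CPM, and replicates 2 and 4 were alike. nimC4, the receptor SIMU for dying cells, was the one higher member, at 4.90 and 4.45 CPM, then at 54.2 and 14.1 CPM (2.87). Summed over the 22 tested markers, the level was 16980 and 13240 CPM in replicates 1 and 2 and 13070 and 10190 CPM in replicates 3 and 4. It was 7038 and 8369 CPM in S2-AbdA, and the sum was dominated by Nplp2 and collagen IV.

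Of 7 crystal cell markers 4 were lower and 0 higher. proPO-A1, a prophenoloxidase gene that overlaps elk, was at 79.8 and 13.3 CPM, then at 2.63 and 0.816 CPM (-4.78, SE 0.84, adjusted p = 0.00222), and lz, the crystal cell Runx factor, at 1.60 and 0.561 CPM, then at 0 and 0.0716 CPM (-4.54). proPO45 was at 3.36 and 0.237 CPM in replicates 1 and 2, and its direction rests on replicate 1. The summed crystal cell level did not follow these genes, at 239 to 297 CPM in replicates 1 and 2 and 206 to 321 CPM in replicates 3 and 4, since Men-b makes up most of it. Of 7 tested lamellocyte markers 2 were lower, betaInt-nu and alphaPS4, and 1 higher, chn, with sums of 1546 and 1777 CPM, then 853.5 and 1799 CPM. Among all genes 18.9% were lower and 18.1% higher. After a correction on exonic length, described with the mitochondrial genes, 1 lamellocyte marker was lower and 2 were higher, so this list has no settled direction. No marker of crystal cells or lamellocytes was at 0 in all 4 S2 libraries.

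Immune recognition genes fell beyond the markers already named. Of 37 tested, 18 were lower and 1, nimC4, was higher, and several of these are also on the plasmatocyte list. GNBP3, which binds fungal glucans, went from 161 and 149 CPM to 4.33 and 6.73 CPM (-4.81, SE 0.49, adjusted p = 9.75e-05). PGRP-LC, the cell surface receptor of the Imd pathway, went from 119 and 99.1 CPM to 6.30 and 12.8 CPM (-3.51), and the intracellular sensor PGRP-LE from 11.6 and 14.7 CPM to 0.738 and 0.801 CPM (-4.09). PGRP-SA, the circulating sensor of the Toll pathway, did not pass the test (151 and 169 CPM, then 325 and 116 CPM). The sets were apart in the first 3 genes and crossed in PGRP-SA.

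Within Toll and Imd signalling 11 of 26 genes were lower and 1 higher, with a median of -0.38. The count of lower genes was 4 without replicate 2 and 6 without replicate 1. The Toll ligand gene spz went from 652 and 634 CPM to 138 and 117 CPM (-2.33, SE 0.37, adjusted p = 0.00115), and overlaps CG43935. The receptor gene Tl went from 38.2 and 39.6 CPM to 11.4 and 15.7 CPM (-1.52), and the NF-kappaB factors Dif and dl fell by 1.98 and 1.97. Ligand, receptor and factors were thus each lower in both replicates 3 and 4. Of 14 tested genes of antimicrobial peptides, targets of these pathways, Drs (-2.72) and IM1 (-2.73) were lower, DptB (2.19) and CecA2 (1.31) higher and 10 not past the test, with a median of 0.76. Neither direction exceeded the share of all genes, 18.9% lower and 18.1% higher. IM1 was near the floor, with 7 and 9 counts, then 1 and 2. The genes of this list are very short (median 437 bases), and after a correction on exonic length, described with the mitochondrial genes, 0 were higher and 3 lower, with a median of -0.10. In this list replicate 3 alone had a median of 1.44 and replicate 4 alone -0.50, opposite in sign.

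In the JAK/STAT list 9 of 15 genes were lower and 0 higher, where 18.9% and 18.1% of all genes were, with a median of -1.75. In 12 of them both replicates 3 and 4 lay below both others, as did 35.1% of all genes tested (36.8% lay above). The genes of this list are long (median 4219 bases), and after the length correction 9 were lower and 2 higher (median -1.14). The ligand genes upd3 and upd2 were at 9.66 and 9.26 CPM, then at 0.640 and 0.630 CPM (-3.89, adjusted p = 1.22e-04), and at 2.34 and 2.31 CPM, then at 0.812 and 0.215 CPM (-2.23). The receptor gene dome went from 96.0 and 127 CPM to 25.6 and 56.3 CPM (-1.45). The kinase gene hop (-0.84) and Stat92E, the transcription factor (0.58), did not pass the test. Targets were lower: TotM, a Turandot stress gene, went from 24.9 and 28.3 CPM to 2.17 and 0.372 CPM (-4.43), and Socs36E, a feedback inhibitor, from 214 and 337 CPM to 92.0 and 71.8 CPM (-1.75). Ligands, receptor and targets were thus low while the kinase and the factor were not past the test.

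Adhesion genes were lower in 14 of 24 cases and higher in 1, with a median of -1.77. They are long (median 5906 bases), and after the length correction 12 were lower and 4 higher (median -1.18). The median was -1.92 in replicate 3 alone and -1.27 in replicate 4 alone. alphaPS5, an integrin subunit gene of haemocytes, went from 21.1 and 14.4 CPM to 0.320 and 1.10 CPM (-4.59), and the beta subunit gene betaInt-nu from 12.1 and 18.03 CPM to 1.16 and 1.26 CPM (-3.63). mys, the widely used integrin beta subunit, was at 599 and 714 CPM, then at 293 and 671 CPM, with a difference of -0.45 that missed the test. kirre was the one higher gene (2.53 and 2.57 CPM, then 8.86 and 13.3 CPM, 2.12). Of 21 genes of basement membrane and matrix 5 were lower and 2 higher, where 18.9% and 18.1% of all genes were. Ndg, nidogen, fell from 6.00 and 8.51 CPM to 0.222 and 0.143 CPM (-5.34). trol, perlecan, rose from 178 and 124 CPM to 299 and 728 CPM (1.76). The laminin genes LanA, LanB1 and LanB2 had differences of -0.23, -0.41 and -0.63 and did not pass the test.

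In the Notch list 3 of 14 were lower and 1 higher, where 18.9% and 18.1% of all genes were: fng, which sugars the receptor, went from 21.6 and 19.9 CPM to 0.640 and 0.372 CPM (-5.38, SE 0.51, adjusted p = 7.61e-05), N, the receptor, fell by 1.84, and Ser, a ligand, rose by 0.99. fng overlaps CG10589 and was at 44.5 and 86.5 CPM in S2-AbdA. Of 27 genes of the Wnt, Hedgehog and Dpp pathways, which are long (median 4433 bases), 7 were lower and 3 higher (median -0.13), but after the length correction 4 were lower and 9 higher (median 0.39). Among them were dpp at 2.56 and 3.001 CPM, then at 0.0246 and 0.0716 CPM (-5.65) and the antagonist gene sog at 12.99 and 14.3 CPM, then at 30.5 and 60.9 CPM (1.74). Of 28 genes of receptor tyrosine kinase pathways, ligands among them, 6 were lower and 6 higher, shares near those of all genes. After the length correction 7 were lower and 10 higher. Among the 6 higher before it was Pvf2, a ligand of the receptor Pvr on haemocytes. Pvf2 was at 342 and 321 CPM, then at 1774 and 1029 CPM (2.08, SE 0.39, adjusted p = 0.00327). Pvr itself was at 1076 and 1194 CPM, then at 636 and 1259 CPM, and did not pass the test. Of 14 tested cell death genes 2 were lower, 2 higher and 10 not past the test (median -0.26). This is no excess over the 18.9% and 18.1% of all genes. Within this list the activators rpr and W, also known as hid, fell from 20.3 and 27.3 CPM to 2.09 and 0.787 CPM (-4.07) and from 1.54 and 1.32 CPM to 0.271 and 0.200 CPM (-2.61). The caspase gene Ice was at 114 and 99.7 CPM, then at 312 and 152 CPM (1.12, adjusted p = 0.0647).

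Of 62 tested cytochrome P450 genes 22 were lower, 5 higher and 35 not past the test, with a median of -0.65, and after a correction on exonic length, described with the mitochondrial genes, 22 were lower and 6 higher. Cyp4ac2, which overlaps tkv, went from 47.3 and 52.8 CPM to 2.68 and 1.17 CPM (-4.71), and Cyp12a4 from 165 and 134 CPM to 28.4 and 14.2 CPM (-2.81). Replicate 4 was the lower one in both. Of 31 glutathione S-transferase genes, which are short (median 881 bases), 7 were higher and 3 lower (median 0.36), but after the length correction 3 were higher and 9 lower (median -0.29), so this list has no settled direction. The median was 0.77 for replicate 3 alone and -0.29 for replicate 4 alone. Members of this list share sequence, and reads could be split between neighbours.

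Genes of mitochondria were high in replicates 3 and 4. All 72 genes of mitochondrial ribosomal proteins were tested, and 66 were higher, 0 lower and 6 not past the test, with a median of 1.25 and a range from -0.45 to 2.12. Of the genes of complex I, the first enzyme of the respiratory chain, 27 of 34 were higher and 1 lower (median 1.17), and of complexes III to V 28 of 32 were higher and 0 lower (median 1.38). mRpS18C, a small subunit protein gene, was at 9.96 and 7.71 CPM in replicates 1 and 2 and at 52.5 and 24.4 CPM in replicates 3 and 4 (2.12, SE 0.43, adjusted p = 0.00610). ATPsyn-b, an ATP synthase subunit gene, was at 237 and 210 CPM, then at 1109 and 490.4 CPM (1.84, SE 0.42, adjusted p = 0.0112). In both genes the order was replicate 3, then replicate 4, then replicates 1 and 2 close together.

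These counts varied with the libraries left out and with gene length. Without replicate 2, 2 of the 72 mitochondrial ribosomal genes were higher, and without replicate 1, 17, with medians of 1.15 and 1.31. For the 72 genes the median was 1.71 in replicate 3 alone and 0.69 in replicate 4 alone. Their median exonic length was 783 bases, where the shortest 933 of the tested genes, 35 to 795 bases, had a median difference of 0.84. After a correction on exonic length in each library, 38 were higher and 1 lower, with a median of 0.58, where 20.9% of all genes were higher and 19.4% lower. The same correction left 15 higher genes in complex I (median 0.52) and 21 in complexes III to V (0.77).

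Central metabolism varied more. Of 20 citrate cycle genes, which are longer (median 2128 bases), 10 were higher and 1 lower, with a median of 0.78 that was 0.65 after the correction. SdhB, of succinate dehydrogenase, was at 195 and 172 CPM, then at 656 and 307 CPM (1.39, SE 0.40, adjusted p = 0.0322). In glycolysis 5 of 12 were higher, such as Gapdh1 (413 and 373 CPM, then 1752 and 765 CPM, 1.68), while Hex-A, the hexokinase gene, fell from 132 and 133 CPM to 19.7 and 43.7 CPM (-2.06), and ImpL3, lactate dehydrogenase, from 139 and 422 CPM to 42.9 and 50.3 CPM (-2.59). Hexokinase and lactate dehydrogenase were low in both replicates 3 and 4, at opposite ends of the pathway.

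Genes of cytosolic ribosomal proteins differed mainly in replicate 3. Of 88 tested 20 were higher, a share near the 18.1% of all genes, and 3 lower, with a median of 0.78. The median was 1.19 for replicate 3 alone, with 73 higher, where 33.4% of all genes were, and 0.18 for replicate 4 alone, with 5 higher, where 10.7% were. The counts for 1 replicate alone come from fits with 1 library on that side, and do not test that replicate. What sets replicate 3 apart here is thus the medians and the summed level, without a test. After the length correction 6 were higher and 6 lower. Their summed level was 198300 and 200500 CPM in replicates 1 and 2, 404100 CPM in replicate 3 and 221400 CPM in replicate 4. Replicate 4 was thus near replicates 1 and 2, and replicate 3 stood alone. RpL5 alone took 1.08% and 1.16% of the counts of replicates 1 and 2, 1.96% of those of replicate 3 and 1.26% of those of replicate 4. Short noncoding RNAs went the same way: 45 of 114 tested snoRNA and snRNA genes were higher and 3 lower, while after the correction 4 were higher and 15 lower. Most of these lie within other genes, as snoRNA:Psi28S-2996 does in RpL5, and their reads may belong to the host.

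Genes of growth and division were higher in part. Of 42 genes of DNA replication and the cell cycle 12 were higher, 0 lower and 30 not past the test (median 0.50), with 20 higher after the length correction (0.59). The count was 0 without replicate 2 and 5 without replicate 1. mus209, the gene of the sliding clamp PCNA, was at 234 and 155.9 CPM, then at 727 and 398 CPM (1.53, SE 0.40, adjusted p = 0.0218), and aur, the mitotic kinase Aurora A, at 45.6 and 34.02 CPM, then at 160 and 70.8 CPM (1.53, adjusted p = 0.0297). Of 34 spliceosome genes 14 were higher and 0 lower, and 0 without replicate 2. SmB, a core protein of the snRNPs, was at 81.0 and 56.5 CPM, then at 324 and 142 CPM (1.76). Of 34 proteasome genes 15 were higher and 1 lower (median 0.43), where 18.1% and 18.9% of all genes were. After the length correction 11 were higher and 1 lower (median 0.16), where 20.9% and 19.4% of all genes were. Of 15 constitutive chaperones 7 were higher, such as Hsp60 (491 and 330 CPM, then 2197 and 866 CPM, 1.90). The 1 lower chaperone, Hsc70-2, fell from 11.2 and 13.5 CPM to 0.222 and 0.258 CPM (-5.66, SE 0.50, adjusted p = 5.59e-05). In all of the higher genes named here replicate 3 was above replicate 4, and replicate 4 above replicates 1 and 2. The cell cycle list as a whole did not keep this order. Its median was 0.30 for replicate 3 alone and 0.55 for replicate 4 alone, and 0.34 for replicate 4 over 3. That last median was -0.18 for the spliceosome, -0.42 for the proteasome and -0.58 for the constitutive chaperones.

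**Figure D3:**
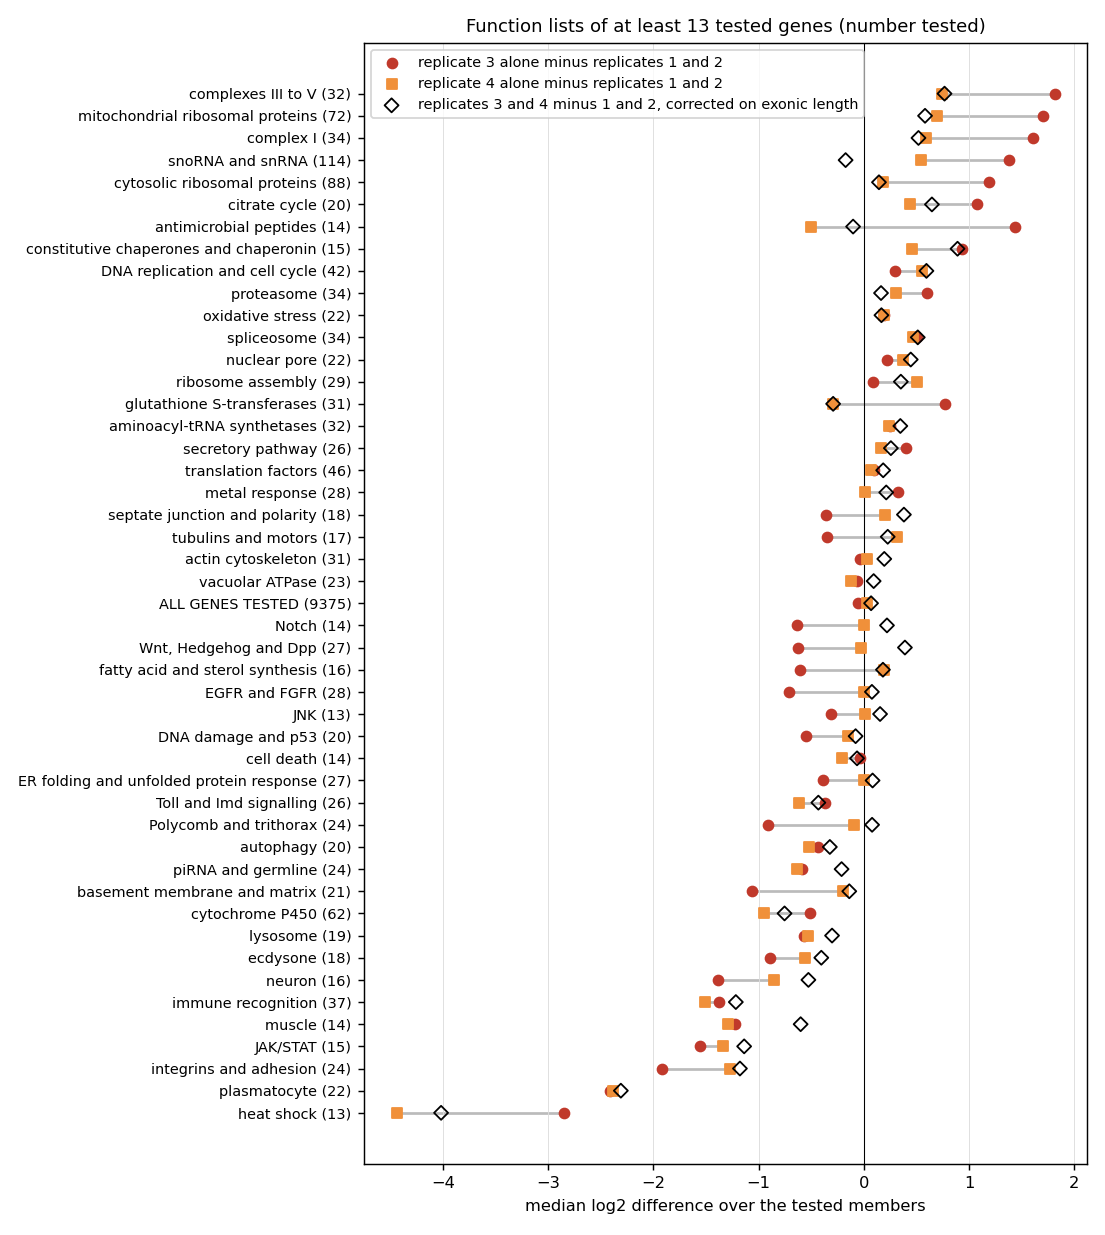
Median log2 difference over the tested members of each function list of at least 13 genes, for replicate 3 alone and replicate 4 alone against replicates 1 and 2, and for both after the correction on exonic length. The mitochondrial lists have replicate 3 far to the right of replicate 4 (1.71 and 0.69 for mitochondrial ribosomal proteins), whereas both lie together for plasmatocyte genes (-2.41 and -2.38).

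Markers of other cell types fell more often than they rose. Of 14 tested muscle genes 8 were lower and 2 higher, of 16 neuronal genes 7 and 0, of 9 glial genes 5 and 0, of 8 ovarian somatic genes 4 and 0, of 7 fat body genes 3 and 0, of 11 imaginal disc genes 6 and 0, and of 9 tracheal and gut genes 5 and 0. Of all genes tested 18.9% were lower and 18.1% higher. The median lengths of these lists were 2437 to 8376 bases, against 2039 bases for all tested genes. After the length correction 6, 6, 4, 4, 3, 3 and 5 were lower and 2, 0, 2, 1, 0, 0 and 0 higher, in the same order. The shares of all genes were then 19.4% and 20.9%, and the fat body median was 0.09. The summed levels in replicates 1 and 2 and then in replicates 3 and 4 were 285 and 294 CPM against 158 and 235 CPM for muscle, and 283 and 349.5 CPM against 131 and 255.3 CPM for neurons. They were 1151 and 1208 CPM against 604 and 765 CPM for glia, with pnt dominant, and 368 and 338 CPM against 86.0 and 239 CPM for trachea and gut. Ovarian somatic sums were 425 and 405 CPM against 296 and 656 CPM, fat body sums 289 and 312.5 CPM against 153 and 253 CPM, and disc sums 1799 and 1962 CPM against 1233 and 1795 CPM. Defining genes were near the floor throughout, such as the neuronal gene Syt1 at 0.275 and 0.389 CPM, then at 0 and 0.0573 CPM, and 1 muscle and 1 fat body marker were at 0 in all S2 libraries. The part of other cells in the falls was not tested.

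Germline and piRNA genes were more often lower than higher. Of 24 tested 9 were lower and 4 higher, where 18.9% and 18.1% of all genes were. The share of higher genes was thus near that of all genes. Sums were 1126 and 1390 CPM in replicates 1 and 2 and 1059 and 1079 CPM in replicates 3 and 4. aub, a Piwi-family protein gene, went from 49.2 and 45.7 CPM to 4.06 and 2.06 CPM (-3.96, SE 0.46, adjusted p = 1.89e-04), and del, whose protein acts at piRNA source loci, from 66.2 and 85.1 CPM to 3.15 and 3.52 CPM (-4.50). ovo went from 12.9 and 15.8 CPM to 51.7 and 44.2 CPM (1.74), and zuc, a nuclease of piRNA processing, from 10.3 and 10.6 CPM to 36.1 and 24.7 CPM (1.54). piwi was at 9.28 and 10.5 CPM, then at 6.10 and 6.35 CPM, and did not pass the test. Of the noncoding RNAs of dosage compensation, roX2 rose from 29.9 and 36.8 CPM to 135 and 84.6 CPM (1.72) and roX1 fell from 0.826 and 1.75 CPM to 0.443 and 0.272 CPM (-1.88).

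The differences were spread over the chromosome arms. Medians on the arms 2L, 2R, 3L, 3R and X lay between -0.08 and 0.05, and 77 genes of chromosome 4 had a median of 0.37. Over 115 windows of 1e+06 bases with at least 30 genes, medians ran from -0.58 to 0.49. The 51 tested genes of heterochromatic scaffolds stood higher, with a median of 0.83, 21 higher and 4 lower, where 18.1% and 18.9% of all genes were, at a median exonic length of 2187 bases near the 2039 bases of all tested genes. The 11 of them on XHet did not, with a median of -0.23, 1 higher and 1 lower.

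Replicates 3 and 4 were compared with separate controls, so that no library served in both ratios. Across 9375 genes Pearson's r between the log2 ratio of replicate 3 over 1 and that of replicate 4 over 2 was 0.75, and it was 0.75 with the controls exchanged. The genes are not independent and share the libraries' depth and length trends, so r is a description only. Replicate 3 was more than 2-fold from replicate 1 in 3818 genes and replicate 4 from replicate 2 in 1448, and 1046 passed in both in the same direction, which is 27.4% of the first and 72.2% of the second. 4 genes passed in opposite directions. With the controls exchanged the numbers were 4094, 1058 and 798 (19.5% and 75.4%), and 2 in opposite directions.

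**Figure D4:**
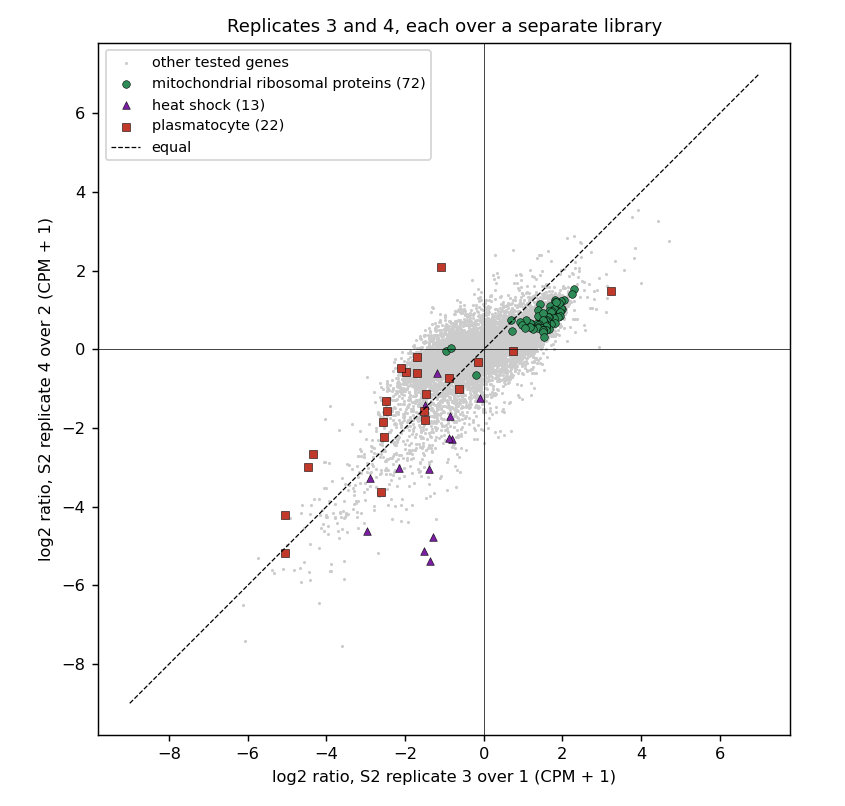
Log2 ratio of CPM plus 1 for replicate 3 over 1 (x axis) and replicate 4 over 2 (y axis), 1 point per tested gene, with 3 lists coloured. Mitochondrial ribosomal genes lie right of the dashed line of equality on the higher side (medians 1.56 and 0.75), and plasmatocyte genes scatter along it on the lower side (medians -1.84 and -1.22).

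The gap between replicates 3 and 4 was also taken within the called genes, which were chosen on these same libraries. Of the 1771 lower genes 14.2% differed more than 2-fold in CPM plus 1 between replicates 3 and 4, and of the 1698 higher genes 32.3%, where 20.4% of all genes did. These shares cannot be read as closer agreement of the lower genes, since adding 1 CPM presses the ratios of genes low in both libraries toward 0. Among called genes of at least 20 CPM in both replicates 3 and 4, a limit chosen after seeing the data, the shares were 37.7% of 297 lower genes and 37.0% of 1321 higher genes, where 27.6% of all such genes did. Of these lower genes replicate 4 was the higher library in 107 and replicate 3 in 5 (median log2 ratio of 4 over 3 of 0.85), and of the higher genes replicate 4 in 4 and replicate 3 in 485 (median -0.93). Replicate 3 was thus the library further from replicates 1 and 2 in most genes past 2-fold, in either direction. The lower genes had a median exonic length of 2524 bases and the higher genes 1242 bases.

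Exonic length ordered the gap between replicates 3 and 4. Spearman's rho with length was 0.63 for replicate 4 over 3, -0.49 for 3 over 1 and -0.19 for 4 over 2, against 0.20 for 2 over 1 and 0.25 between the S2-AbdA libraries. In the 933 shortest genes the median log2 ratio was 0.79 for replicate 3 over 1 and 0.22 for 4 over 2, and in the 932 longest -0.73 and -0.05. After the correction on length 674 genes (7.23%) differed more than 2-fold between replicates 3 and 4 and 108 (1.16%) between replicates 1 and 2. Between the sets, 1944 genes were then higher and 1810 lower. What made replicate 3 follow length was not tested.

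**Figure D5:**
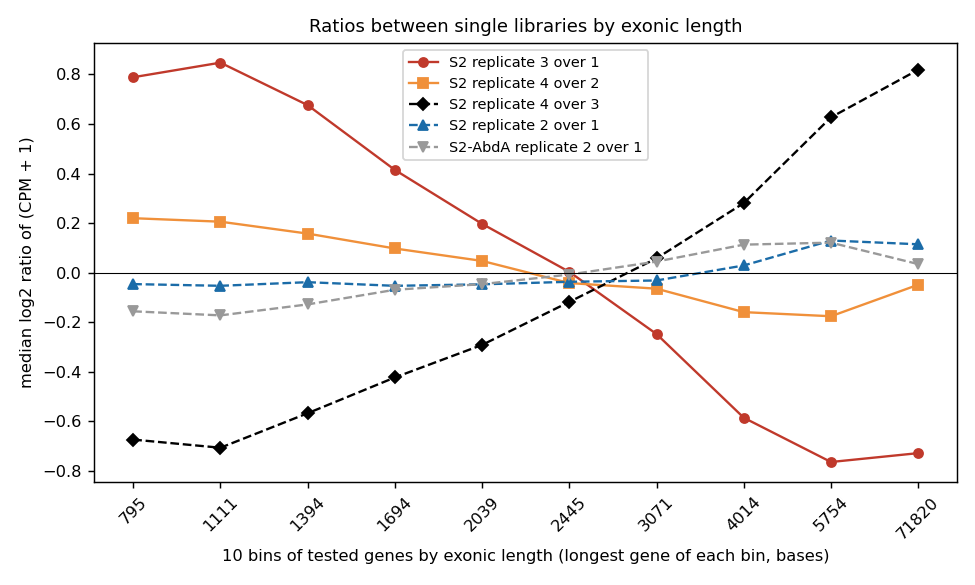
Median log2 ratio of CPM plus 1 between pairs of libraries (y axis) over 10 bins of tested genes by exonic length (x axis, longest gene of each bin in bases). Replicate 3 over 1 falls from 0.79 to -0.73, replicate 4 over 2 stays between 0.22 and -0.18, and replicate 4 over 3 rises from -0.67 to 0.82.

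Single genes show the gap between replicates 3 and 4. Among genes of at least 20 CPM, those furthest above in replicate 4 were Pep, kto, beta-Spec, CG16974 and Hrb27C, with log2 ratios of 1.73 to 1.82. beta-Spec, a spectrin gene, was at 294 and 326 CPM in replicates 1 and 2, 122 CPM in replicate 3 and 421 CPM in replicate 4. Pep, an RNA-binding protein gene, was at 628, 576, 130 and 460 CPM in replicates 1 to 4. In these genes replicate 3 was the outlying library, and none of the 5 passed the test between the sets. Those furthest above in replicate 3 were Tsp42Eg, CG15347, Hsp26, Hsp22 and Ama, with log2 ratios of replicate 4 over 3 from -2.48 to -1.92. Tsp42Eg, a tetraspanin gene, was at 42.8, 54.4, 26.1 and 3.86 CPM in replicates 1 to 4, and CG15347 at 32.0, 40.3, 43.2 and 8.82 CPM. Here replicate 4 was the outlying one.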

How the data were processed

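Polyadenylated RNA was measured in 4 S2 and 2 S2-AbdA libraries. The authors deposited raw counts per gene and library, with symbols, NCBI gene numbers and dm3 coordinates, per the file headers. The submitters' processing notes name CASAVA, edgeR and dm3. Aligner, counter and strand setting: not given in the sources used here. Hence overlapping and antisense genes cannot be told apart.

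Groups and replicate numbers came from the titles, and the sets from the descriptions. Genes were filtered with filterByExpr on 3 sets (S2 replicates 1 and 2, S2 replicates 3 and 4, S2-AbdA), which left 9375, and scaled by TMM. edgeR 4.0.16 (R 4.3.3, limma 3.58.1) fitted all 6 libraries without covariates and tested the contrast by robust quasi-likelihood, with Benjamini-Hochberg adjustment over all genes tested. The biological coefficient of variation was 0.291. Ratios of single libraries are log2 of TMM-scaled CPM plus 1, with no test. Further tools were Python 3.11.15 (numpy 2.4.6, scipy 1.17.1, pandas 2.3.3), and DESeq2 1.42.0 was an alternative. The length correction is a smooth curve on log exonic length in each library, used as an offset. Exonic lengths came from a later annotation through the NCBI gene number, for 14478 of 14770 genes, and no coordinate was taken from it.

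The precision is set by 34233132 to 69858688 counts per library, of which 3 counts are 0.0429 to 0.0876 CPM. A chi-square comparison of each of the 15 pairs of libraries gave 74.3 (S2 replicates 1 and 2) to 1690 per gene, so no pair agreed within sampling noise. On simulated data for this contrast (9175 genes tested) a 2-fold change was found in 9 of 67 genes (13.4%), a 4-fold change in 61 of 67 and an 8-fold change in 66 of 66. The test called 8 unchanged genes (0.0891%). The simulated libraries shared 1 mean profile, with no trend on length and no outlying replicate 3, and few genes were changed. These rates therefore do not carry over to the contrast itself, where 37.0% of genes were called.

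Named genes were the 10 largest rises and falls past the test with a log2 difference of at least 1 and no overlap of the sets, among those with at least 5 CPM in both libraries of the higher set, the 5 furthest apart in each direction between replicates 3 and 4 at 20 CPM or more, the 3 of largest share per library, up to 4 members of smallest adjusted p per list, abd-A, the metallothioneins and the heat shock genes. Other members were named for their role in a pathway after their values were seen. The comparison, its 61 lists and these rules were chosen with earlier results of these data known. Alternatives were other scalings, filters, thresholds, DESeq2, the 4 S2 libraries alone, the length correction and leaving out each library. The authors' table of changed genes was not used.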

Additional observations from a re-analysis of the deposited data

How the results depend on the processing

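No paired analysis was possible because the sets compared share no replicate numbers. Of 3469 differing genes, 2109 remained at an adjusted p under 0.05, with 865 higher. Leaving out 1 library at a time gave 1048 to 6354 in all, 150 to 3237 higher and 898 to 3117 lower. With library size alone 760 were higher. DESeq2 on the same genes called 3791. The share of genes more than 2-fold apart between replicates 3 and 4 was 27.2% with a pseudocount of 0.1 CPM, 13.6% with 5 CPM and 7.23% after the length correction, which was chosen after seeing the data. At 20 CPM or more in both, a limit also chosen later, it was 37.7% of the lower genes, up from 14.2%, and 37.0% of the higher, up from 32.3%; the added 1 CPM weighs less there. The cause of the other shifts was not tested. Of the named genes, proPO45 alone changed sign, to 0.11 without S2 replicate 1 (adjusted p = 0.941), with -3.73 at the other end without S2 replicate 2. With 2 libraries a side, a 2-fold difference that misses the test is not shown to be absent.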

Other observations

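Genes of the response to ecdysone, the steroid hormone of moulting, were lower in 7 of 18 cases in replicates 3 and 4 and higher in 1, with a median of -0.78. Among all genes 18.9% were lower and 18.1% higher. Oatp74D, whose protein imports ecdysone, was at 127 and 134 CPM in replicates 1 and 2 and at 14.6 and 19.1 CPM in replicates 3 and 4 (log2 difference -2.95). The early response genes Eip74EF and Eip75B fell by 1.51 and 1.10, while the receptor gene EcR did not pass the test (-0.16). After the length correction 4 genes of this list were lower and 2 higher.

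Of 22 genes of oxidative stress 9 were higher, 4 lower and 9 not past the test, where 18.1% and 18.9% of all genes were. Sod, a superoxide dismutase gene, was at 245 and 210 CPM, then at 798 and 327 CPM (1.31), and the thioredoxin gene Trx-2 at 381 and 320 CPM, then at 1363 and 651 CPM (1.52). The oxidase genes Nox and Duox fell by 1.94 and 1.31, from under 2 CPM. After the length correction 5 were higher and 4 lower.

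Of 20 autophagy genes 7 were lower and 0 higher (median -0.58), and of 19 lysosome genes 7 were lower and 3 higher. Among all genes 18.9% were lower and 18.1% higher. After the length correction 6 autophagy genes were lower and 2 higher (median -0.32). In the lysosome list 7 were then lower and 4 higher (median -0.30). Sap-r, the precursor of saposins, which help to break down lipids, fell by 1.71, whereas Npc2a, a sterol carrier gene, was at 56.2 and 40.1 CPM, then at 275 and 114 CPM (2.01).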
